A study of Homo sapiens with 12 samples.

Results

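The genes described here are 8 members of the TALE class of homeobox genes: MEIS1, MEIS2 and MEIS3, PBX2, PBX3 and PBX4, and PKNOX1 and PKNOX2, whose proteins are also called PREP1 and PREP2 in the order given. They were chosen as known partners of the homeobox transcription factor HOXA9, and each was read from the probe set on the array that carries its symbol alone, the brightest one where a gene has several. Of the 8 genes, 7 had such a probe set, among 18417 genes measured in this way. PBX2 was seen only by 2 probe sets that it shares with the pseudogene PBX2P1.

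RNA was measured in 10 arrays of cells labelled as the 1833 subline of MDA-MB-231, a human breast cancer line whose 1833 subline is known for its spread to bone. The groups were 3 arrays of cells carrying HMGA2 shRNA from the lentiviral vector pLKO.1, kept under puromycin (shHMGA2), 2 arrays of cells with the inducible construct pLVX-TRE3G-Flag-Tet1 (Tet1), 2 arrays of cells with the inducible construct pLVX-TRE3G-HOXA9 (HOXA9), and 3 arrays of control cells, for which the labels give no vector. The Tet1 and HOXA9 cells also carried the Tet-On 3G regulator from pCMV-Tet3G, were selected with puromycin and G418, and grew in serum approved for tetracycline systems, so serum and selection changed together with the construct. Their titles name subline 1833 and their source names 1834. The labels name no clone and call the arrays biological replicates without saying which cultures were separate, so p-values measure the spread between these samples, which may be technical.

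TALE homeodomain proteins bind DNA together with HOX proteins and raise the affinity and selectivity of HOX binding. PBX proteins pair with HOX proteins directly, MEIS and PREP proteins pair with PBX proteins and help to keep them in the nucleus, and MEIS proteins can also pair with HOXA9 and its nearest relatives. HOXA9 with MEIS1 and PBX3 is known above all from acute leukaemia, where MEIS1 speeds the disease that HOXA9 starts.

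The promoters of 3 members are shown, chosen for their expression values or for a motif match. MEIS1 on the deposited values stood 0.62 to 0.66 higher (log2) than control in shHMGA2, Tet1 and HOXA9. PBX3 on those values moved in opposite directions among the groups. In the promoter of MEIS2 a composite site for PBX with a HOXA9-class protein was found. A link between promoter sequence and the fold changes was not tested. Each sequence is the 250 bases before a RefSeq start on GRCh38.p14, read 5′ to 3′ on the strand of the gene. Capitals mark the motif match in those of MEIS2 and PBX3, and that of MEIS1 held none.
MEIS1: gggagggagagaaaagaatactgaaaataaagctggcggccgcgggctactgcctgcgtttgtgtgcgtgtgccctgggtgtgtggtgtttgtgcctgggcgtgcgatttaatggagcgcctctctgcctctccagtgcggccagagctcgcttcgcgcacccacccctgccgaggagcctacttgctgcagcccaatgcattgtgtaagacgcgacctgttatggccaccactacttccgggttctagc
MEIS2: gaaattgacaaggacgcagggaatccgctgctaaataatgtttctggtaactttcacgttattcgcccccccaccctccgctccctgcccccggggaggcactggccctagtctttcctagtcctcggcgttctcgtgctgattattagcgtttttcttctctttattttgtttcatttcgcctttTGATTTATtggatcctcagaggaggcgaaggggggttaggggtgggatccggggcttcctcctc
PBX3: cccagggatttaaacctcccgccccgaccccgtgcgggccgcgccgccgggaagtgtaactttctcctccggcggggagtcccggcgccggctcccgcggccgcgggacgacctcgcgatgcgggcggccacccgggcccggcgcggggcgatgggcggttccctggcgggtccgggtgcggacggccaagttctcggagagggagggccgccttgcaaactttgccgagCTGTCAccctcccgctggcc
They lie at chr2:66434875-66435124 on the plus strand for MEIS1, at chr15:37098697-37098946 on the minus strand for MEIS2 and at chr9:125747933-125748182 on the plus strand for PBX3. RefSeq promoters were at hand for 7 of the 8 members, 9 promoters in all; the exception was PKNOX2.

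Both strands were searched for TGACAG, the core bound by MEIS and PREP proteins, and for TGATTTAT and TGATTTAC, composites of PBX with HOXA9-class proteins that do not contain that core. PBX3 held the core on its other strand (CTGTCA as printed) 20 bases before the start, a motif that 13% of 35116 promoters of the same length hold. MEIS2 held TGATTTAT 64 bases before the start shown, one of its 2 listed starts, against 0.752% of promoters. The 9 promoters held no other match, and TGATTTAC was in 0.555% of all promoters. A match is a run of letters, not a measured binding site. CG dinucleotides, the sites of DNA methylation on which TET enzymes act, numbered 36 in the promoters of PBX3 and PKNOX1, 16 in that of MEIS1 and 7 at the fewest, and 6 of the 9 were above the median of 11 per promoter.

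The arrays formed 2 sets, shHMGA2 with control and Tet1 with HOXA9. Correlations between arrays were 0.986 to 0.998 within the first, 0.993 to 0.997 within the second and 0.945 to 0.966 between them. No group had arrays in both, so batch, parent subline, serum, selection and construct cannot be told apart in any comparison across the sets. The median gene was 0.25 higher in Tet1 and 0.24 higher in HOXA9 arrays than in control (log2). The sets differed more at low and middle levels than at high ones. Lower quartiles of the arrays were 5.75 to 5.76 in shHMGA2 and control, and 6.22 to 6.25 in Tet1 and HOXA9. Upper quartiles were 9.19 to 9.24 and 9.22 to 9.29. The part of this difference in the members' fold changes was not tested. Fold changes across the sets are therefore given with 2 further scalings, a single quantile normalization of all arrays and a shift to equal array medians. The shift adds the same amount to the log2 fold change of every gene, -0.47 in Tet1 and -0.45 in HOXA9 against control. Under it any gene between 0 and that size turns lower and any gene already lower stays so. Bright genes are moved by it as much as dim ones, although the upper quartiles lay close together. Over all genes, 53.9% were called higher and 23.2% lower in Tet1 against control on the deposited values, 32.6% and 33.3% after quantile normalization and 21.9% and 51.4% with equal medians. In HOXA9 these shares were 54% and 21.6%, 29.7% and 34.0%, and 20.3% and 51.1%. In a mesenchymal breast line list 6 of 7 genes lay in the top 10% of genes in every group, all but SPARC, and 2 of 8 luminal markers did, KRT8 and KRT18.

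Of the targeted genes, TET1 averaged 8.97 ± 0.29 in shHMGA2, 7.07 ± 0.13 in Tet1, 7.30 ± 0.14 in HOXA9 and 6.56 ± 0.11 in control arrays (log2, SD, n = 3, 2, 2 and 3). It was 0.23 lower in Tet1 than in HOXA9 arrays (limma adjusted p = 0.69), and its log2 fold change against control in Tet1, 0.50 as deposited (limma adjusted p = 0.0052), was -0.06 after quantile normalization and 0.04 with equal array medians (limma adjusted p = 0.74 and 0.80). The transcript thus does not bear out the Tet1 label, and both groups are called by their labels. It is not known if this probe set detects RNA of the construct. HMGA2 was read with ELAC2 by 1 common probe set, with a log2 fold change of -0.75 in shHMGA2 (limma adjusted p = 0.0032 over all probe sets). The HOXA9 transcript was not analysed here.

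In shHMGA2 cells, compared with control to ask which genes HMGA2 regulates, 4 of the 7 measured TALE genes rose: MEIS1 most, and MEIS2, PBX3 and PKNOX2 by less. PBX4 fell, and both probe sets shared by PBX2 and PBX2P1 fell. MEIS1 was 1.55-fold higher and the other called changes of single-symbol genes were at most 1.28-fold. The call was a Benjamini-Hochberg adjusted p under 0.05 in limma over all genes, and by it 26.2% of all genes passed, 13.6% higher and 12.6% lower. The members' median change was 0.24 and that of all genes -0.03 (log2). The shHMGA2 cells carried pLKO.1 and were kept under puromycin, while the labels give control no vector. Whether vector and selection changed along with the shRNA is thus not known, and their effects cannot be told apart here.

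MEIS1, the MEIS gene best known as a partner of HOXA9 in leukaemia, was at 7.74, 7.70 and 7.81 in shHMGA2 arrays, against 7.23, 7.0 and 7.11 in control arrays (log2 levels). Every shHMGA2 array was above every control array. The log2 fold change was 0.63 (SE 0.07, 95% confidence interval 0.47 to 0.79, limma adjusted p = 7.5e-05), larger in size than that of 95.8% of all genes. MEIS2, a close relative of MEIS1 with roles in limb, heart and neural development, was at 8.34, 8.40 and 8.43 in shHMGA2 arrays, against 8.19, 8.23 and 8.05 in control arrays. The groups did not overlap, and the log2 fold change was 0.24 (SE 0.06, interval 0.10 to 0.38, limma adjusted p = 0.017). The MEIS2 call was lost under the single quantile normalization (0.18, limma adjusted p = 0.055) and without control replicate 3, shHMGA2 replicate 2 or shHMGA2 replicate 3, where its adjusted p was 0.051 to 0.066. MEIS3, the least studied of the MEIS genes, was at 7.86, 7.96 and 7.87 in shHMGA2 arrays, against 7.63, 7.88 and 7.65 in control arrays. Control replicate 2 lay within the shHMGA2 range, and the log2 fold change of 0.18 did not pass (interval 0.02 to 0.34, limma adjusted p = 0.088). Without that control array it was 0.26 (limma adjusted p = 0.013). The 2 probe sets that MEIS3 shares with the pseudogene MEIS3P1 gave -0.15 and -0.04 (limma adjusted p = 0.38 and 0.78 over all probe sets), the other sign from the gene's own probe set.

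PBX3, the PBX gene most often found beside HOXA9 and MEIS1 in leukaemia, was at 10.40, 10.49 and 10.38 in shHMGA2 arrays, against 10.06, 10.25 and 10.17 in control arrays (log2 levels). The groups were apart by a narrow margin, with a log2 fold change of 0.26 (SE 0.07, interval 0.10 to 0.42, limma adjusted p = 0.02). With equal array medians it was 0.23 (limma adjusted p = 0.052), and without control replicate 1 or shHMGA2 replicate 2 the adjusted p was 0.079. PBX4, a shorter PBX protein known mainly from the testis, was at 8.42, 8.51 and 8.32 in shHMGA2 arrays, against 8.60, 8.70 and 8.60 in control arrays. It was lower in every shHMGA2 array, with a log2 fold change of -0.22 (SE 0.07, interval -0.38 to -0.06, limma adjusted p = 0.049). This call stood at the threshold and was lost on leaving out any single array but shHMGA2 replicate 2, with an adjusted p of up to 0.17.

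PBX2, a widely expressed PBX gene, was read together with PBX2P1. The brighter of their shared probe sets was at 9.82, 9.93 and 9.76 in shHMGA2 arrays, against 10.25, 10.23 and 10.27 in control arrays. The other shared probe set was at 9.60, 9.80 and 9.64 in shHMGA2 arrays, against 10.10, 10.06 and 10.13 in control arrays. All shHMGA2 values lay below all control values in both. The log2 fold changes were -0.41 and -0.42 (SE 0.06 each, limma adjusted p = 0.002 and 0.0024 over all probe sets), and both calls held under each of the alternatives run for these probe sets: the other scalings, the dim filter, the intensity trend, the replicate block, all 12 columns and each array of either group left out. How much of the signal is PBX2 and how much PBX2P1 cannot be told apart.

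PKNOX2, the PREP gene with the more restricted expression, was at 7.10, 7.21 and 7.47 in shHMGA2 arrays, against 7.0, 6.93 and 6.78 in control arrays. The groups did not overlap, although the shHMGA2 arrays were widely spread, and the log2 fold change was 0.36 (SE 0.09, interval 0.16 to 0.55, limma adjusted p = 0.012). PKNOX1, the widely expressed PREP gene, was at 8.08, 8.20 and 8.07 in shHMGA2 arrays, against 8.02, 8.08 and 8.04 in control arrays. These values overlapped, and the log2 fold change of 0.07 did not pass (interval -0.06 to 0.21, limma adjusted p = 0.46). In all, 5 of 7 members did not overlap between the groups, where 40.5% of all genes did not.

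Some markers of other cells moved with the same contrast. In a list of kidney and HEK293 traits 5 of 10 genes were called higher in shHMGA2 and 0 lower, beside 13.6% and 12.6% of all genes. Its summed linear signal was 2843 to 3647 in shHMGA2 arrays and 1209 to 1309 in control arrays, with 2 of its genes in shHMGA2 and 4 in control below the dim level of 6.26 (log2, the 30th percentile of all probe sets). HOXD10, a member of that list, was 4.47 higher in shHMGA2, at 10.42 against 5.95 in control (log2 means). Much of the summed signal in shHMGA2 is therefore HOXD10, and the next largest rise was that of NEFM (1.65). In a stretch of chromosome 9 that MDA-MB-231 is known to lack, all 3 genes were called higher in shHMGA2, CDKN2A by 2.48 and MTAP by 1.72 on the log2 scale, and the summed linear signal was 1234 to 1743 in shHMGA2 and 370 to 430 in control arrays. The part of these markers in the changes of the TALE genes was not tested. In bulk RNA, fewer cells of a type and less RNA per cell cannot be told apart.

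**Figure D1:**
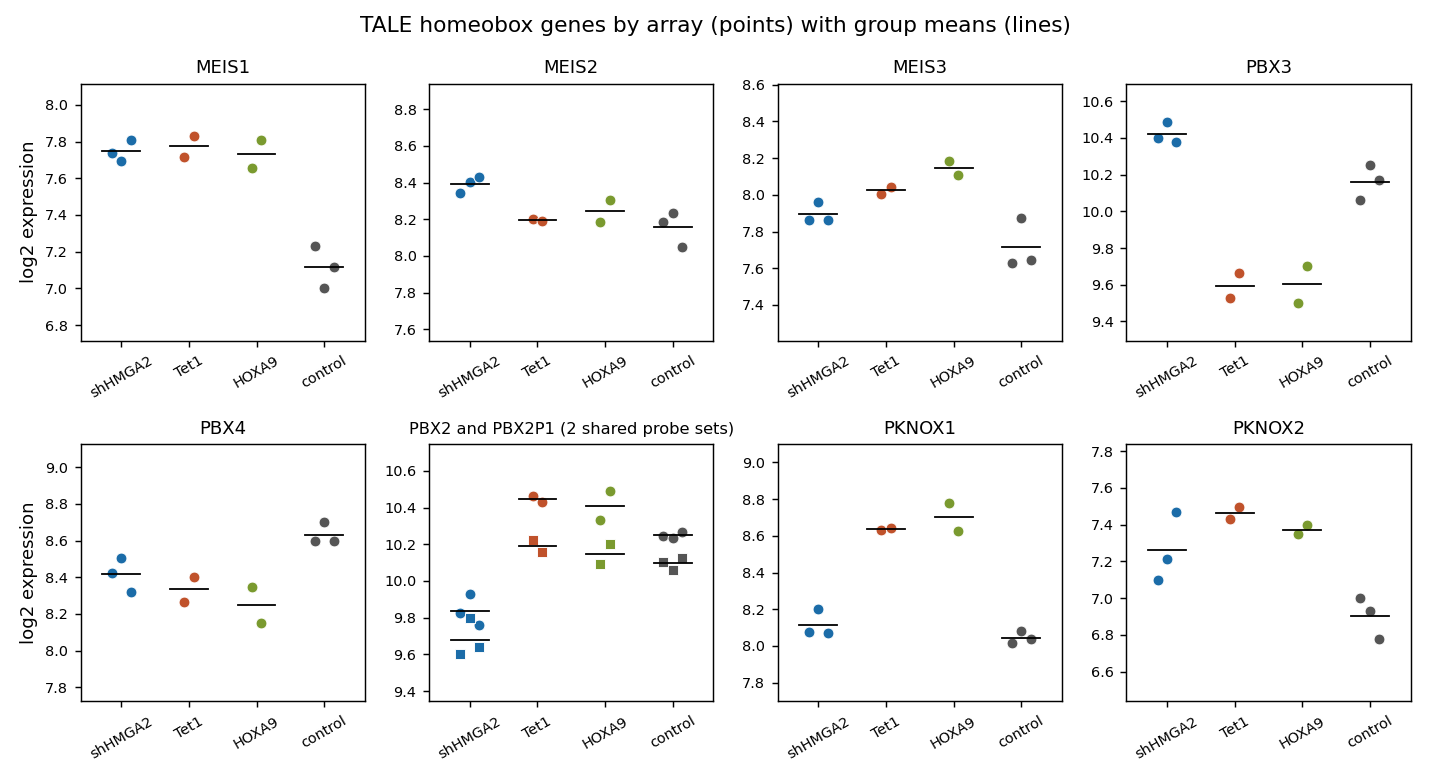
Log2 expression of the 7 measured TALE genes and of the 2 probe sets shared by PBX2 and PBX2P1 (circles and squares), 1 point per array, with group means as lines and the same width of axis in every panel. MEIS1 is at 7.66 or above in every shHMGA2, Tet1 and HOXA9 array and at 7.23 or below in control, while PBX3 is highest in shHMGA2 and lowest in Tet1 and HOXA9.

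In cells labelled Tet1, set against control to ask which genes Tet1 regulates, PBX3 and PBX4 fell, also after quantile normalization. They were lower with equal array medians too, but that shift keeps any lower gene lower and so is no check on them. MEIS1, MEIS3, PKNOX1 and PKNOX2 rose on the deposited values, but no member was called higher with equal array medians, and only PKNOX1 under the single quantile normalization. MEIS2 was not called on the deposited values and was called lower under both other scalings. On the deposited values 6 of 7 members were called, where 77.1% of all genes were, 53.9% higher and 23.2% lower. All 6 did not overlap with control, against 85.7% of all genes, and the members' median change of 0.31 stood beside 0.25 for all genes.

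PBX3 was at 9.53 and 9.66 in Tet1 arrays, against 10.06, 10.25 and 10.17 in control arrays (log2 levels). Both Tet1 arrays lay below all controls. The log2 fold change was -0.57 (SE 0.08, interval -0.74 to -0.39, limma adjusted p = 5e-05), a level 1.48-fold higher in control, and it was -0.49 under the single quantile normalization and -1.03 with equal array medians. PBX4 was at 8.26 and 8.40 in Tet1 arrays, against 8.60, 8.70 and 8.60 in control arrays. It was lower in both, with a log2 fold change of -0.30 (SE 0.08, limma adjusted p = 0.0057), and -0.52 and -0.76 under the other scalings. Without Tet1 replicate 1 it was -0.23 (limma adjusted p = 0.075). The probe sets of PBX2 with PBX2P1 were at 10.46 and 10.43, and at 10.22 and 10.16, in Tet1 arrays. Against control these were log2 fold changes of 0.20 and 0.09 (limma adjusted p = 0.024 and 0.26 over all probe sets). They were 0.31 and 0.20 after quantile normalization, both called higher (limma adjusted p = 0.0015 and 0.032), and -0.27 and -0.37 with equal array medians, both called lower (limma adjusted p = 0.011 and 0.0017). The call as deposited was lost without control replicate 1 or 2 or either Tet1 array, where the adjusted p was 0.051 to 0.11.

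MEIS1 was at 7.72 and 7.83 in Tet1 arrays, against 7.23, 7.0 and 7.11 in control arrays. Both were above all controls, with a log2 fold change of 0.66 (SE 0.08, limma adjusted p = 1.3e-05) that came down to 0.19 under each other scaling (limma adjusted p = 0.066 and 0.059). PKNOX1 was at 8.63 and 8.64 in Tet1 arrays, against 8.02, 8.08 and 8.04 in control arrays. The log2 fold change was 0.59 (SE 0.07, limma adjusted p = 8.5e-06), and it was 0.37 under the single quantile normalization and 0.12 with equal array medians (limma adjusted p = 0.12). PKNOX2 was at 7.43 and 7.50 in Tet1 arrays, against 7.0, 6.93 and 6.78 in control arrays. Its log2 fold change of 0.56 (SE 0.10, limma adjusted p = 0.00027) was 0.03 and 0.10 under the other scalings, with no call. MEIS3 was at 8.0 and 8.04 in Tet1 arrays, against 7.63, 7.88 and 7.65 in control arrays. Its log2 fold change of 0.31 (limma adjusted p = 0.0038) turned to -0.07 and -0.16 under the other scalings. MEIS2 was at 8.20 and 8.19 in Tet1 arrays, within the control range of 8.05 to 8.23. The log2 fold change was 0.04 (limma adjusted p = 0.61), and it was -0.26 and -0.43 under the other scalings (limma adjusted p = 0.0077 and 2e-04).

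The HOXA9 arrays, set against the same 3 control arrays to ask which genes HOXA9 regulates, gave a like list of calls. PBX3 and PBX4 fell as deposited and after quantile normalization, and the shift to equal array medians could only keep them lower. PKNOX1 rose under every scaling, and MEIS1, MEIS3 and PKNOX2 rose on the deposited values alone. With 6 of 7 members called, 4 of them higher, the share of all genes called was 75.7%, with 54% higher and 21.6% lower. All 6 did not overlap with control, as 82.8% of all genes did not. The members' median was 0.43 and that of all genes 0.24 (log2).

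PBX3 was at 9.50 and 9.70 in HOXA9 arrays, against 10.06, 10.25 and 10.17 in control arrays. It was below all controls in both, with a log2 fold change of -0.56 (SE 0.08, interval -0.74 to -0.38, limma adjusted p = 5.9e-05) and values of -0.52 and -1.02 under the other scalings. PBX4 was at 8.35 and 8.15 in HOXA9 arrays, against 8.60, 8.70 and 8.60 in control arrays. The log2 fold change was -0.38 (SE 0.08, limma adjusted p = 0.0012), and -0.63 and -0.84 under the other scalings. The probe sets of PBX2 with PBX2P1, at 10.33 and 10.49 and at 10.09 and 10.20 in HOXA9 arrays, gave 0.16 and 0.05 (limma adjusted p = 0.055 and 0.53 over all probe sets). They were 0.24 and 0.13 after quantile normalization (limma adjusted p = 0.0073 and 0.14), and -0.29 and -0.40 with equal array medians (limma adjusted p = 0.0072 and 0.0011). Without HOXA9 replicate 1 the brighter one was 0.24 (limma adjusted p = 0.024).

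PKNOX1 was at 8.78 and 8.63 in HOXA9 arrays, against 8.02, 8.08 and 8.04 in control arrays. Its log2 fold change of 0.66 (SE 0.07, limma adjusted p = 4e-06) was 0.43 and 0.21 under the other scalings, called in both. MEIS1 was at 7.66 and 7.81 in HOXA9 arrays, against 7.23, 7.0 and 7.11 in control arrays. It stood above all controls, with a log2 fold change of 0.62 (SE 0.08, limma adjusted p = 2.5e-05) and 0.16 under each other scaling, where the adjusted p was 0.12 and 0.10. PKNOX2 was at 7.35 and 7.40 in HOXA9 arrays, with a log2 fold change of 0.47 (limma adjusted p = 0.0011), and -0.05 and 0.02 under the other scalings. MEIS3 was at 8.19 and 8.11, with a log2 fold change of 0.43 (limma adjusted p = 0.00037), and 0.08 and -0.02 under the other scalings. For both, the HOXA9 arrays were above all controls as deposited, and neither was called after rescaling. MEIS2 was at 8.18 and 8.30 in HOXA9 arrays and overlapped the controls. Its log2 fold change was 0.09 (limma adjusted p = 0.27), and -0.21 and -0.37 under the other scalings (limma adjusted p = 0.024 and 0.00068).

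**Figure D2:**
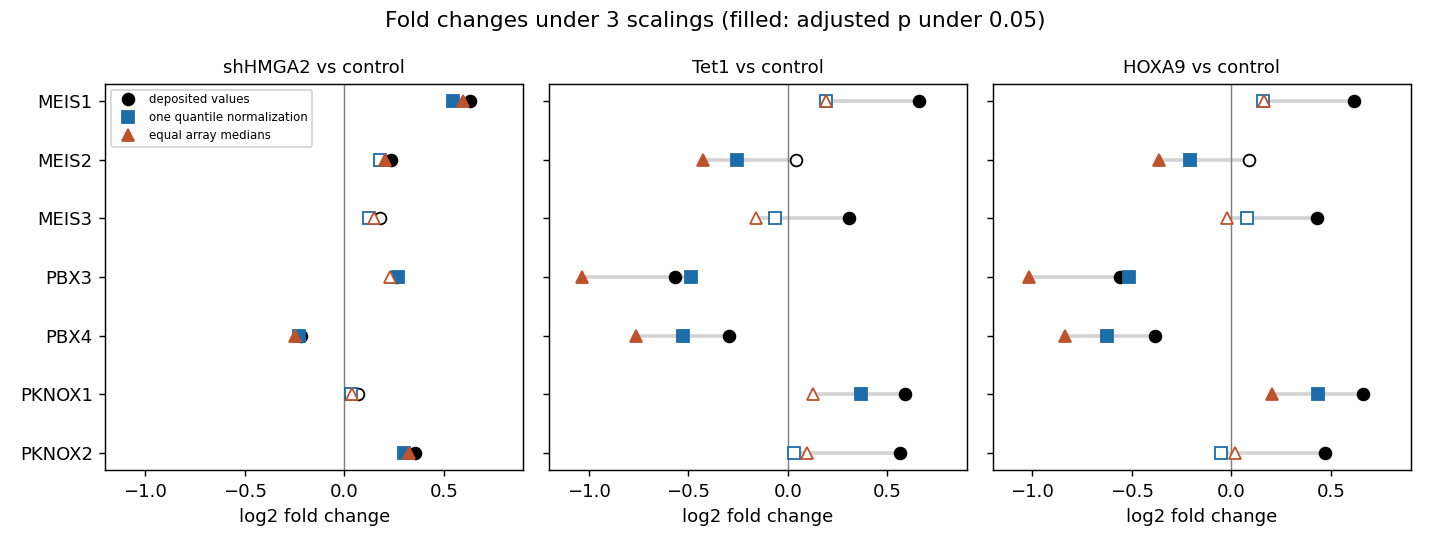
Log2 fold changes of the 7 measured TALE genes against control on the deposited values (circles), after a single quantile normalization (squares) and with equal array medians (triangles), filled where the limma adjusted p was under 0.05. In shHMGA2 the 3 values of each gene lie close together, while in Tet1 and HOXA9 MEIS2 and MEIS3 cross 0, as does PKNOX2 in HOXA9, and PBX3 and PBX4 stay below it.

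Tet1 and HOXA9 arrays lie in the same array set, and their comparison asks whether the 2 constructs act on the same genes. A lack of calls cannot show that they do, as TET1 did not bear out the Tet1 label and the HOXA9 transcript was not analysed. No measured TALE gene was called between Tet1 and HOXA9 arrays: 0 of 7, where 0.434% of all genes were called. At an unadjusted p under 0.05 in limma it was also 0 of 7, where 9.16% of all genes passed. The log2 fold changes, Tet1 over HOXA9, ran between -0.12 for MEIS3 and 0.09 for PKNOX2, with adjusted p of 0.71 to 0.99. For MEIS1 the difference was 0.04 (interval -0.15 to 0.23), for PBX3 -0.01 (interval -0.20 to 0.19) and for PKNOX1 -0.07 (interval -0.23 to 0.10). The interval of PKNOX2 was the widest, -0.15 to 0.33, so with 2 arrays a group a difference of that size could be missed. MEIS3 was higher in both HOXA9 arrays and PKNOX2 in both Tet1 arrays, while the other 5 genes overlapped, and 41.3% of all genes did not overlap. Leaving out 1 array of these groups left 0 members called in each case.

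**Figure D3:**
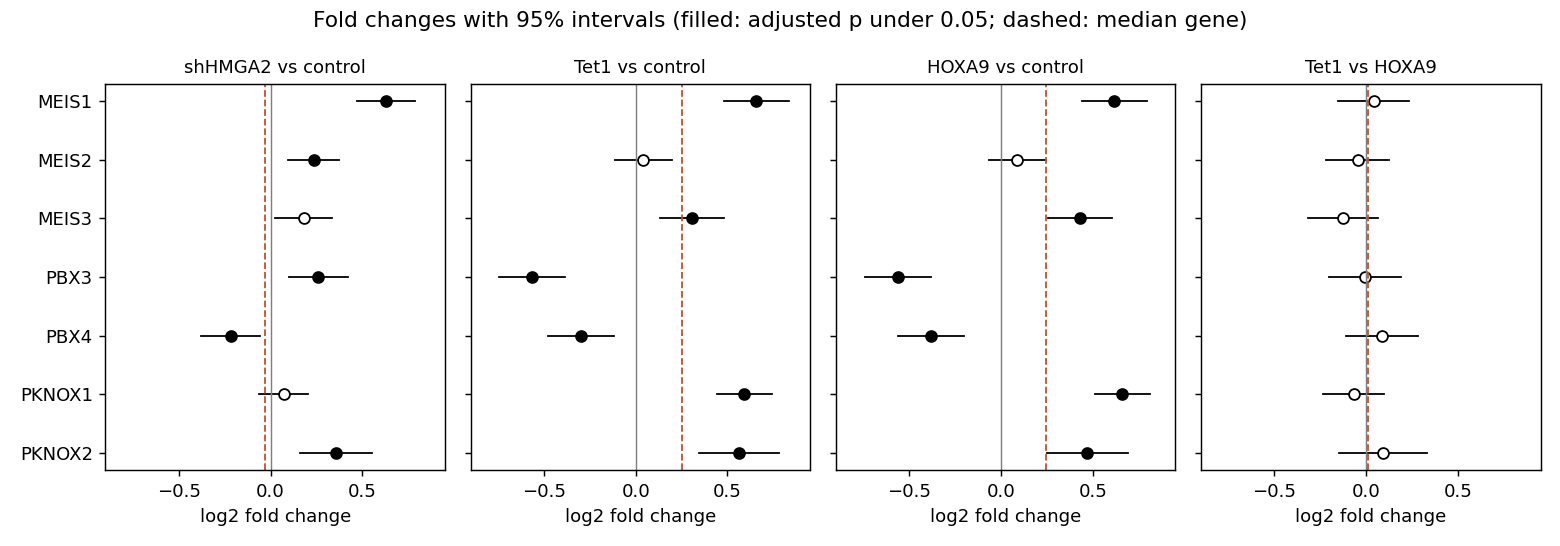
Log2 fold changes of the 7 measured TALE genes on the deposited values with 95% confidence intervals (bars), filled where the limma adjusted p was under 0.05, with the median of all genes as a dashed line. The PBX3 interval lies above 0 in shHMGA2 and below 0 in Tet1 and HOXA9 against control, and every interval of Tet1 against HOXA9 includes 0.

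On the deposited values, the order of the groups differed from gene to gene. MEIS1 averaged 7.75 ± 0.06 in shHMGA2, 7.77 ± 0.08 in Tet1, 7.73 ± 0.11 in HOXA9 and 7.12 ± 0.11 in control arrays (log2, SD, n = 3, 2, 2 and 3), so on these values the shHMGA2, Tet1 and HOXA9 arrays overlapped with each other and not with control. Under the quantile normalization and equal array medians, MEIS1 was higher in shHMGA2 than in Tet1 by 0.35 and 0.41 (limma adjusted p = 0.0029 and 0.00083) and than in HOXA9 by 0.39 and 0.44 (limma adjusted p = 0.0018 and 0.00053). PBX3 averaged 10.42 ± 0.06 in shHMGA2, 9.60 ± 0.10 in Tet1, 9.60 ± 0.14 in HOXA9 and 10.16 ± 0.09 in control arrays, with only Tet1 and HOXA9 overlapping. As deposited and after quantile normalization, it was the only measured member called higher against control in shHMGA2 and lower in Tet1 and HOXA9. With equal array medians this was so of MEIS2 alone (0.21, -0.43 and -0.37, limma adjusted p = 0.037, 2e-04 and 0.00068), since PBX3 was then not called in shHMGA2. These comparisons share their control arrays, so shHMGA2 was also set directly against Tet1 and HOXA9, here and for MEIS1, MEIS3, PBX4 and PKNOX1. That comparison was chosen after seeing the data. PBX3 was 0.83 higher in shHMGA2 than in Tet1 (log2, interval 0.65 to 1.01, limma adjusted p = 1.9e-06) and 0.82 higher than in HOXA9 (interval 0.64 to 1.00, limma adjusted p = 2.3e-06). Under the other scalings the differences were 0.75 and 1.26 from Tet1, and 0.78 and 1.24 from HOXA9. They cross the array sets, between which 80.1% and 78.8% of all genes were called.

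As deposited, MEIS2 was highest in shHMGA2, whose arrays lay above all others, while Tet1, HOXA9 and control overlapped. In MEIS3 the order was control, shHMGA2, Tet1 and HOXA9, with an overlap only between control and shHMGA2. With equal array medians MEIS3 was lowest in Tet1 (7.75), followed by HOXA9 (7.89), control (7.91) and shHMGA2 (8.06), and it was 0.31 higher in shHMGA2 than in Tet1 (limma adjusted p = 0.0039). PKNOX1 separated the array sets as deposited, since all 4 Tet1 and HOXA9 arrays were at 8.63 or above and all 6 shHMGA2 and control arrays at 8.20 or below. For shHMGA2 against Tet1 it was at -0.33 after quantile normalization and -0.08 with equal array medians (limma adjusted p = 0.0016 and 0.28). Against HOXA9 it was at -0.40 and -0.17 (limma adjusted p = 0.00048 and 0.046). PBX4 was highest in control, and the other groups overlapped as deposited. After quantile normalization and with equal array medians it was higher in shHMGA2 than in Tet1 by 0.30 and 0.52 (limma adjusted p = 0.0087 and 0.00011). It was higher than in HOXA9 by 0.40 and 0.59 (limma adjusted p = 0.0014 and 3.8e-05). PKNOX2 was lowest in control, with shHMGA2 overlapping both Tet1 and HOXA9, while after quantile normalization its lowest mean was in HOXA9 (7.07, against 7.12 in control).

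The genes most like each member over the 10 arrays were found by Pearson's r among genes above the dim level in at least 1 group and with a range of group means of at least 0.5 (log2), which were 9402 genes, or 9403 where the member itself did not qualify. All 10 arrays enter each r, so the points share their array set, and r is a description. MEIS1 was followed by KCNMB4 (0.986), DPCD (0.986) and VCF2 (0.975), which were likewise at like levels in the changed groups and lower in control. KCNMB4 encodes a potassium channel subunit, and it averaged 7.97 in shHMGA2, 7.97 in Tet1, 7.91 in HOXA9 and 7.28 in control. PKNOX2 was followed by PJA1 (0.980), SLC13A4 (0.967) and GALNT16 (0.965). PBX3 was followed by GTF2I (0.994), RPP38 (0.994) and TULP4 (0.993), and 1472 genes had an r over 0.9 with it. For PKNOX1, whose nearest genes were RPS3A, DNAJB13 and HMGB3P1 (0.992 each), 4575 genes did. For PBX4 5 genes were over 0.9, led by USP12 (0.936), MTCL1 (0.911) and COL8A1 (0.906). MEIS2 had 7 such genes, led by HIBCH (0.933), TRMT11 (0.932) and REXO5 (0.927), and MEIS3 had 39, led by ZNF555 (0.947), SEMA4D (0.939) and CLUHP3 (0.929). The group means of PBX4, MEIS2 and MEIS3 ranged over less than 0.5, so the spread between arrays limits their r. Their low counts do not show that their profiles are rare.

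Among the other TALE genes, 9 were measured: TGIF1, TGIF2, MKX and the Iroquois genes IRX1 to IRX6. In shHMGA2 0 were called higher and 1 lower, TGIF1, a repressor of TGF-beta target genes (log2 fold change -0.38, limma adjusted p = 0.0024). That is 1 of 9 where 26.2% of all genes were called. In Tet1 7 were higher and 1 lower on the deposited values, led by IRX2 (1.11) and IRX4 (0.84), with TGIF1 at -0.21. In HOXA9 the counts were also 7 and 1, with IRX2 at 1.01, IRX4 at 0.83 and TGIF1 at -0.31. Both IRX genes stayed called higher under the other scalings, but the counts became 3 higher with 1 lower and 2 with 2 in Tet1, and 3 with 2 and 2 with 2 in HOXA9, while all genes turned as given above.

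HOX genes, the partners in DNA binding, were measured for 27 of 39. In shHMGA2 17 were called higher and 0 lower, against 13.6% and 12.6% of all genes, with a median of 0.51 beside -0.03. HOXD10 (4.47) and HOXD11 (1.83) moved most, and HOXD10 is also among the kidney and HEK293 traits described above. In Tet1 17 were higher and 2 lower on the deposited values, with HOXD13 at 0.91, HOXB1 at 0.88, HOXB9 at -0.89 and HOXC5 at -0.47. Rescaled, these counts turned to 6 higher with 9 lower and 3 with 8, as the calls over all genes also turned, to 32.6% higher with 33.3% lower and 21.9% with 51.4%. In HOXA9 16 were higher and 2 lower, with HOXC12 at 0.75, HOXB1 at 0.73, HOXB9 at -0.60 and HOXC5 at -0.44. The counts turned to 3 with 11 and 2 with 9. HOXB1 was not called in HOXA9 after quantile normalization (0.20, limma adjusted p = 0.13). HOXC12 kept its call there at 0.24 and 0.30 under the other scalings, from a control mean of 5.74 below the dim level of 6.26. HOXB9 and HOXC5 stayed lower in both groups after quantile normalization, and also with equal array medians, where any lower gene stays so.

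Of 21 cofactors and regulators of PBX, MEIS and HOXA9 proteins, 19 were measured. In shHMGA2 3 rose and 3 fell, 31.6% of the list beside 26.2% of all genes. TLE4, a Groucho corepressor, was 4.44 higher, from a control mean of 5.94 that lay below the dim level of 6.26. CRTC3, a CREB coactivator, was 0.27 higher. TRIB2, a pseudokinase of the MEIS1 programme in leukaemia, was at -0.96 and MYH9, a non-muscle myosin, at -0.41. In Tet1 2 rose and 9 fell, and in HOXA9 4 rose and 8 fell, so 57.9% and 63.2% of the list were called beside 77.1% and 75.7% of all genes. The counts became 1 with 9 in both groups after quantile normalization, and 1 with 16 in Tet1 and 1 with 15 in HOXA9 with equal array medians. PBXIP1, which binds PBX proteins and hinders their binding to DNA with HOX proteins, was 1.48 higher in Tet1 and 1.49 higher in HOXA9. CREBBP, a histone acetyltransferase, was at -0.97 in Tet1 and -0.94 in HOXA9, and KMT2A, a histone methyltransferase that maintains HOX expression, at -0.75 and -0.71. PBXIP1, CREBBP and KMT2A kept direction and call under the other scalings, although equal array medians could not turn the lower CREBBP and KMT2A. TLE4, 0.40 and 0.45 higher there, did not.

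All 22 listed leukaemia targets of HOXA9 and MEIS1 were measured. In shHMGA2 4 were higher and 5 lower, 40.9% of the list beside 26.2% of all genes. ID2, an inhibitor of basic helix-loop-helix factors, was at 3.94 and the receptor KIT at 0.84, with the integrin ITGB3 at -0.52 and the cyclin CCND3 at -0.36. In control arrays KIT averaged 5.48, below the dim level of 6.26, and ID2 6.40, just above it. In Tet1 14 were higher and 3 lower, and in HOXA9 15 and 4, on the deposited values. These are 77.3% and 86.4% of the list, beside 77.1% and 75.7% of all genes called. In Tet1 and HOXA9, ITGB3 was 1.98 and 1.82 higher, and SPP1, a secreted bone matrix protein, 1.49 and 1.30 higher. The control mean of SPP1 was 5.59, below the dim level. CCND1 was at -0.92 and -0.91 and CCND3 at -0.90 and -0.89. All of them were called the same way under every scaling, although equal array medians could not turn the lower CCND1 and CCND3. The counts became 11 higher with 6 lower and 7 with 9 in Tet1, and 10 with 6 and 7 with 9 in HOXA9. Between Tet1 and HOXA9 0 genes of these 4 lists were called.

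**Figure D4:**
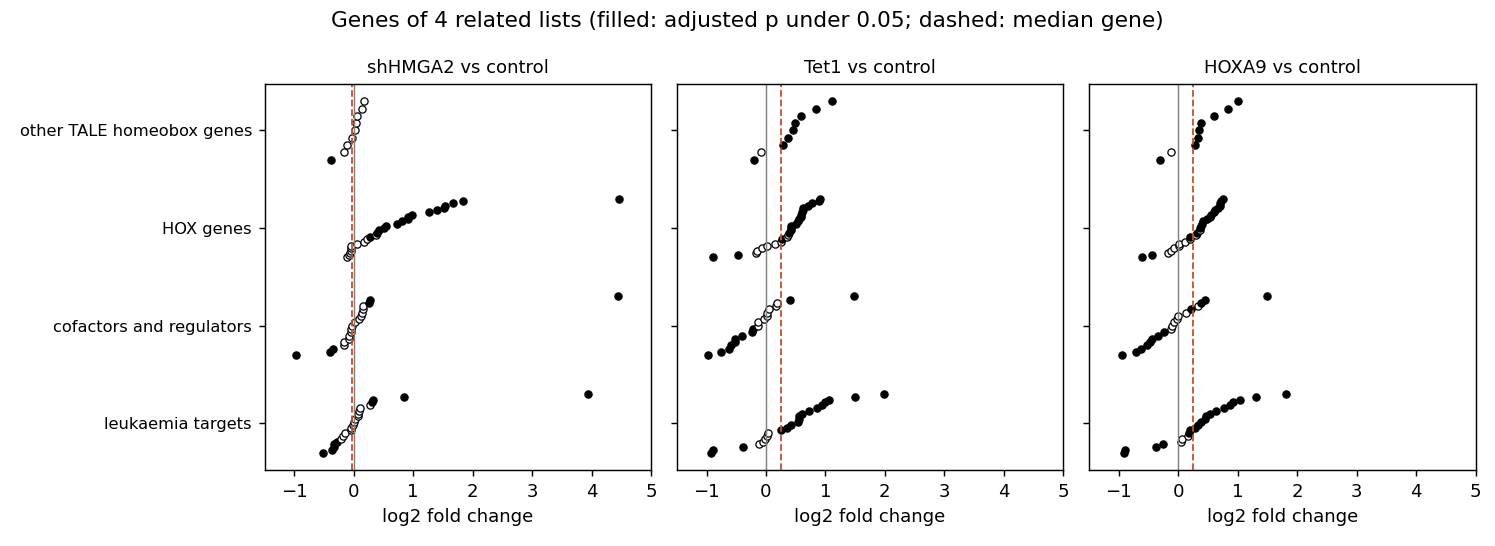
Log2 fold changes on the deposited values of the measured genes of 4 related lists, 1 point per gene sorted within its list, filled where the limma adjusted p was under 0.05, with the median of all genes dashed. HOX genes lie to the right in shHMGA2, led by HOXD10 at 4.47, and the right shift of the HOX and other TALE genes in Tet1 and HOXA9 is on the deposited scale, where the HOX counts, like those of all genes, turned round after rescaling.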

How the data were processed

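Expression was read from 1-colour Affymetrix human gene arrays as log2 values, which the authors deposited for 33297 probe sets and 12 columns. The submitters' processing notes name RMA and R 2.11. RMA subtracts background, gives the arrays of a run 1 distribution and sums up the probes of a set. The sources do not state which arrays shared an RMA run. In Tet1 and in HOXA9, the replicate 3 column was the average of the other 2 columns in all 33297 probe sets (tolerance 1e-06). It was left out, which left 10 arrays. Platform annotation gave 1 symbol to 19460 probe sets, several to 1754, and does not list 12083. The highest-mean single-symbol probe set stood for each of the 769 genes with several, giving 18417 genes.

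The 4 groups entered 1 linear model (limma 3.58.1 under R 4.3.3, lmFit with eBayes), with 6 degrees of freedom from the residuals and 5.65 from the prior. All p-values are two-sided with Benjamini-Hochberg adjustment over all genes, called under 0.05; shared probe sets were adjusted over all probe sets. SEs and intervals pool the spread of all groups. No dim genes were removed, and the number of arrays limits precision. The steps were tested on simulated data. The named genes are all members, the 3 genes most like each, and up to 2 rising and 2 falling called genes of a list. Members and lists, including markers of mesenchymal and luminal breast, kidney, blood and fibroblast cells, were chosen with earlier results of these data known. Alternatives changed normalization, scaling, dim filter, probe set rule, samples, variance model, replicate block and replicates left out.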

Additional observations from a re-analysis of the deposited data

How the results depend on the processing

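In shHMGA2 against control, 5 members were called. The count was 3 without control replicate 1, control replicate 3, shHMGA2 replicate 2 or shHMGA2 replicate 3, 4 without shHMGA2 replicate 1 and 5 without control replicate 2, a range of 3 to 5. It was 4 after a single quantile normalization, with equal array medians, over all probe sets, with an intensity trend and with the replicate number as a block, and 6 over all 12 columns. MEIS1 and PKNOX2 kept their calls throughout, with the highest adjusted p at 0.00064 and 0.049. PBX4 lost its call over all probe sets (adjusted p = 0.087), with the trend (0.061) and with the block (0.055). In Tet1 against control the count of 6 became 4 after quantile normalization and 3 with equal array medians, where 65.9% and 73.4% of all genes were called, and 5 without Tet1 replicate 1. In HOXA9 against control it became 4 under both scalings, where 63.8% and 71.3% of all genes were called, and was 6 on leaving out any array. Between Tet1 and HOXA9 it was 0 in every setting, while the count over all genes, 80, ranged between 11 without Tet1 replicate 1 and 1112 over 12 columns, with 145 after quantile normalization, 143 with only these groups, 18 without Tet1 replicate 2 and 17 without HOXA9 replicate 2. Over all 33297 probe sets 24412 were called in Tet1 and 23847 in HOXA9 against control, where over genes 14197 and 13938 were.

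Across the array sets, scaling turned several signs, and the cause was not tested. After quantile normalization MEIS2 was at -0.26 in Tet1 and -0.21 in HOXA9, MEIS3 at -0.066 in Tet1, PKNOX2 at -0.053 in HOXA9, TLE4 at -0.11 and -0.071, and the MEIS3 and MEIS3P1 probe sets at -0.36 and -0.039 in Tet1 and -0.29 and -0.081 in HOXA9. With equal array medians MEIS2 was at -0.43 and -0.37, MEIS3 at -0.16 and -0.023, TLE4 at -0.063 and -0.0027, the MEIS3 and MEIS3P1 probe sets at -0.40 and -0.11 in Tet1 and -0.34 and -0.14 in HOXA9, and those of PBX2 and PBX2P1 at -0.27 and -0.37 in Tet1 and -0.29 and -0.40 in HOXA9. As deposited, the MEIS3 and MEIS3P1 probe sets were at 0.07 and 0.35 in Tet1 and 0.12 and 0.31 in HOXA9. For shHMGA2 against Tet1, MEIS1 was at -0.03 as deposited, 0.35 after quantile normalization and 0.41 with equal medians, and MEIS3 at -0.13, 0.19 and 0.31. For shHMGA2 against HOXA9 MEIS3 was at -0.25, 0.047 and 0.17. The share of called genes that were higher was 69.9% in Tet1 and 71.4% in HOXA9 as deposited, 49.4% and 46.6% after quantile normalization, and 29.9% and 28.4% with equal medians; between Tet1 and HOXA9 it was 26.2% as deposited and 37.9% after quantile normalization.

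Replicate numbers were shared by the groups, and deviations of same-numbered shHMGA2 and control arrays correlated at 0.16, 0.14 and 0.0017. Between the other pairs of groups the values ran from -0.19 (shHMGA2 with HOXA9) to 0.17 (Tet1 with HOXA9). With so few arrays a group, these values cannot show whether same-numbered samples shared more than a number. With the replicate block 4885 genes were called in shHMGA2 against control, against 4830 without it, and the members called were 4, 6, 6 and 0 in the 4 comparisons.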

Other observations

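Of the fibroblast markers, 2 collagen chains differed between Tet1 and HOXA9 arrays, which lie in the same array set, and both were higher in Tet1. COL1A1 averaged 9.37 in Tet1 and 8.81 in HOXA9 arrays (log2 difference 0.56, limma adjusted p = 0.0084), and COL1A2 8.76 and 8.31 (0.46, limma adjusted p = 0.044), n = 2 each. These were the 2 of 5 markers called there, where 0.434% of all genes were called. Against control 4 of the 5 were called higher in both groups on the deposited values, as were 53.9% and 54% of all genes. COL1A2 was higher by 1.79 in Tet1 and 1.34 in HOXA9. After quantile normalization 3 markers were higher and 0 lower in both groups, and with equal array medians 2 were higher and 1 lower. In shHMGA2 1 was called lower, PDGFRB, at -0.37, where 12.6% of all genes were lower.

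On the deposited values, mesenchymal breast line markers were called higher and lower in 0 and 4 of 7 in shHMGA2, 5 and 2 in Tet1 and 4 and 2 in HOXA9, all against control. Luminal markers were called in 0 and 2 of 8, 5 and 1, and 5 and 0. Over all genes 13.6% were called higher and 12.6% lower in shHMGA2, and 23.2% and 21.6% lower in Tet1 and HOXA9. Of 4 blood cell markers 1 was lower in shHMGA2, and all 4 were higher in Tet1 and in HOXA9, where 53.9% and 54% of all genes were higher. These counts changed with the scaling, as those of all genes did: blood cell markers became 1 higher and 2 lower after quantile normalization and 0 and 2 with equal array medians, in both groups. Mesenchymal markers became 2 and 2, and 1 and 3, in Tet1 and 2 and 2, and 2 and 3, in HOXA9. Luminal markers became 3 and 2, and 2 and 3, in Tet1 and 4 and 3, and 2 and 3, in HOXA9. Of the 10 kidney and HEK293 traits 7 were higher and 1 lower in Tet1, and 6 and 2 in HOXA9, as deposited. They became 4 and 3 under both scalings in Tet1, and 3 and 3, and 2 and 3, in HOXA9. Of the 3 chromosome 9 genes 0 were called in Tet1 as deposited and 1 was lower in HOXA9, CDKN2A at -0.43, while all 3 were called lower in both groups under both other scalings, with medians of -0.63 and -0.57 in Tet1 and -0.76 and -0.69 in HOXA9.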
